A study of Mus musculus with 56 samples.

Results

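The 10 genes described here encode the transporters that move bile acids and other organic anions into, through and out of the hepatocyte: Slc10a1, Slco1a1, Slco1a4 and Slco1b2 for uptake from blood, Abcb11 and Abcc2 for export into bile, and Abcc3, Abcc4, Slc51a and Slc51b for export back into blood. They were taken by gene symbol from the deposited table of read counts, where they are 10 of 21935 genes. Liver RNA was sequenced from 56 mice, 8 in each of 7 groups. Chow vehicle mice stayed on chow. The other 6 groups were fed AMLN diet (high in fat, with added fructose and cholesterol) for 36 weeks before dosing, and their liver disease was established by biopsy before they entered the study (DIO-MASH, diet-induced obese mice with metabolic dysfunction-associated steatohepatitis). All mice were male C57BL/6J, and all were dosed by daily injection for 8 weeks, with vehicle or drug. The drugs of the combination were given as separate injections. The groups were chow vehicle, DIO-MASH vehicle, zalfermin at 0.05 mg/kg (low dose), zalfermin at 0.2 mg/kg (high dose), semaglutide at 3 µg/kg (low dose), semaglutide at 120 µg/kg (high dose), and the combination of zalfermin at 0.05 mg/kg with semaglutide at 3 µg/kg. Zalfermin acts like the liver hormone FGF21 but persists far longer in blood. Semaglutide activates the receptor of the gut hormone GLP-1. The doses of the combination follow the study's methods; the design text deposited with the data names the high doses instead. The DIO-MASH mice were selected for steatosis and fibrosis at biopsy, so they stand for mice with established disease rather than for all mice on the diet.

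Bile acids are made in hepatocytes, secreted across the canalicular membrane into bile, reabsorbed in the ileum and taken up again from portal blood at the sinusoidal membrane. Slc10a1 (NTCP) takes up conjugated bile acids with sodium, and the Slco1 genes (OATP1 family) take up bile acids, bilirubin, steroid conjugates and many drugs without sodium. Abcb11 (BSEP) pumps bile acids into bile and Abcc2 (MRP2) pumps conjugated bilirubin and glutathione conjugates. Abcc3 (MRP3), Abcc4 (MRP4) and the heterodimer of Slc51a and Slc51b (OSTα and OSTβ) release bile acids and conjugates across the basolateral membrane into blood, and this route is known to gain weight when bile flow is impaired.

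Between 5228187 and 20885786 reads per library were counted on genes, with a median of 12206788. Levels are given in CPM, reads scaled to a common library size after TMM normalization, and differences as log2 fold changes with their SE from edgeR's quasi-likelihood fit, with p-values adjusted over the 14105 genes that had 5 or more reads in 3 or more mice. Of the 10 members, 9 passed that filter and Slc51a did not. The labels carry sample numbers in 4 series, whose meaning is not stated, and of the 18 member differences from DIO-MASH vehicle that passed the test, 17 had the same sign within each of the 3 larger series. The exception was Slco1a1 in chow vehicle, whose difference in the first series was -0.76 on the log2 scale with 2 mice on each side. The labels show no separate cultures or pools, and each library is labelled as a liver of a mouse of its own.

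A pair of libraries stood apart and are treated as doubtful in what follows. Chow vehicle mouse 8 held reads of intestinal epithelium. Vil1, which builds the microvilli of the gut, was at 272 CPM in this library and at 2.53 CPM or less in the other 55. Lct, the intestinal lactase, was at 108 CPM and elsewhere at 0.272 CPM or less. Cdx2, the transcription factor that defines intestinal epithelium, was at 6.15 CPM and had no read elsewhere, whereas Fabp6 of the ileum had no read in any library. Krt19, at 156 CPM against 16.8 CPM or less elsewhere, and Epcam, at 90.1 CPM against 29.2 CPM or less, were also highest there. Low-dose semaglutide mouse 6 lay far above its group for Slc10a1, and the study's methods state that a low-dose semaglutide sample, not named in the labels, was left out. Where leaving out these libraries changed a call or moved a value of a transporter markedly, the value from a fit of the remaining 54 samples is given as well.

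**Figure D1:**
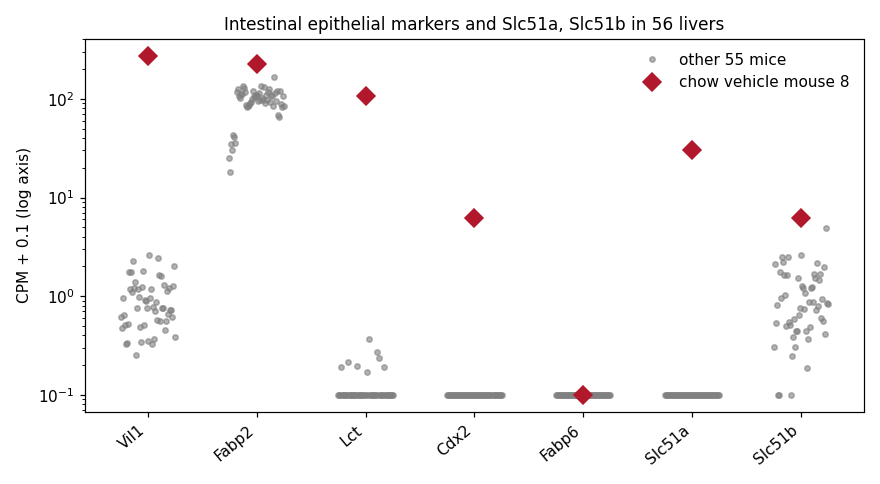
CPM plus 0.1 (log axis) of 5 intestinal epithelial markers and of Slc51a and Slc51b in the 56 livers; the diamond is chow vehicle mouse 8 and grey points are the other 55 mice. The diamond lies far above the other mice for Vil1, Lct, Cdx2 and Slc51a, at 272, 108, 6.15 and 30.03 CPM, and is also the highest value of Slc51b, at 6.03 CPM.

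In GRCm38 with GENCODE M21 genes, the OATP genes lie together on chromosome 6, with Slco1b2 at chr6:141629518-141686646 on the plus strand, Slco1a4 at chr6:141805440-141856199 and Slco1a1 at chr6:141907282-141946962, both on the minus strand. Slc10a1 lies at chr12:80953183-80968705, Abcb11 at chr2:69238282-69342616, Abcc3 at chr11:94343295-94392997, Abcc4 at chr14:118482692-118706219, Slc51a at chr16:32474504-32487879 and Slc51b at chr9:65412714-65422955, each on the minus strand, and Abcc2 at chr19:43782192-43840740 on the plus strand. Sequence shared with other genes was small for most members: of all 75-base windows of their transcripts, 1.08% of Slco1a1 and 1.03% of Slco1a4 also occurred in other Slco1a genes, 1.19% of Abcb11 and 2.83% of Slc51b in an overlapping gene on the other strand, and none in Slc10a1, Slco1b2, Abcc2, Abcc3 and Abcc4. Slc51a shared 15.4% of its windows with Pcyt1a on the opposite strand, and as the use of strand in counting is not stated in the sources used here, such reads cannot be assigned with certainty.

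Promoter sequence is shown for Slc10a1, Slco1a4 and Abcb11, the members that were higher together in chow and in the combination. RefSeq promoter entries on GRCm38.p6 exist here for 9 of the 10 members, with 11 annotated starts. Each line gives the 250 bases before an annotated start on the strand of the gene, and capitals mark a match of the hexamer AGGTCA, the binding core of many nuclear receptors, on either strand.
Slc10a1, chr12:80968706-80968955, minus strand: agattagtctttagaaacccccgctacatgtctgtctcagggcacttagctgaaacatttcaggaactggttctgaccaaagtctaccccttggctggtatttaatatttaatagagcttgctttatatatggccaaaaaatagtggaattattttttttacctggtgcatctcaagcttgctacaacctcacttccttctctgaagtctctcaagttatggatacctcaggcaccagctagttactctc
Slc10a1, inner start, chr12:80968080-80968329, minus strand: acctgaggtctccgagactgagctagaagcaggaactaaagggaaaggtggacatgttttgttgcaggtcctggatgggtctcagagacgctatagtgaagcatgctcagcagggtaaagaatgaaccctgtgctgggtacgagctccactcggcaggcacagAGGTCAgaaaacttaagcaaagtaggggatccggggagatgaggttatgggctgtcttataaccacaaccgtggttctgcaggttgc
Slco1a4, chr6:141856221-141856470, minus strand: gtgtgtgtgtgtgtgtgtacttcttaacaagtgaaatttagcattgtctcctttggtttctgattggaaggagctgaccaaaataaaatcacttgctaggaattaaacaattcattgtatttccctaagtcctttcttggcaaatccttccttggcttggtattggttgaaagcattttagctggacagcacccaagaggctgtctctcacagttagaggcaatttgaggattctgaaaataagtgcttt
Abcb11, chr2:69342617-69342866, minus strand: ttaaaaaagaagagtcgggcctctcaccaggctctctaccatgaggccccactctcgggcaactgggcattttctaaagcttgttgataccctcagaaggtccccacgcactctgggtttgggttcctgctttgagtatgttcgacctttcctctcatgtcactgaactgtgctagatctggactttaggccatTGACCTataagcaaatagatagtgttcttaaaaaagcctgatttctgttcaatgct

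The hexamer was found before the inner start of Slc10a1, from base -87 to -82 on the strand of the gene, and before Abcb11, from -56 to -51 on the opposite strand, counting from -1 as the base next to the start. It was in 7 of the 11 member windows, against 14% of 32851 annotated promoters cut to the same length. Its inverted repeat with a spacer of 1 base (IR1), its direct repeat with a spacer of 1 base (DR1) and the inverted repeat of GTTAAT with a spacer of 1 base were in none of the member windows, and were in 0.00609%, 0.0335% and 0.00913% of all promoters. The core TGACNNNGC was in the windows of both Abcc4 starts and of Abcc2, against 10.2% of all promoters. Matches of IR1 and DR1 would contain a match of the hexamer, and both strands were searched. These matches are a description of letters and say nothing on binding.

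Per length, as CPM per kilobase of merged exons, the mean levels in chow vehicle livers ran from Slc10a1 at 435 over Slco1b2 at 241, Abcb11 at 154, Abcc3 at 93.3, Abcc2 at 85.8, Slco1a1 at 67.0 and Slco1a4 at 33.3 down to Slc51b at 1.95 and Abcc4 at 0.773. The Slc51b value leans on chow vehicle mouse 8, without which its chow mean fell from 1.39 to 0.721 CPM. In DIO-MASH vehicle livers Slco1b2 stood first with 188 CPM per kilobase, ahead of Slc10a1 with 142, and Abcc4 was at 1.37. On this scale the livers of both groups held more message for each uptake gene, canalicular pump and Abcc3 than for Abcc4 and Slc51b. The gap was smallest for Slco1a4 in DIO-MASH vehicle, at 6.77 against 2.15 for Slc51b. The cells measured were labelled liver, and hepatocyte markers such as Alb, at 43210 CPM or more in each of the 56 libraries, were abundant throughout.

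**Figure D2:**
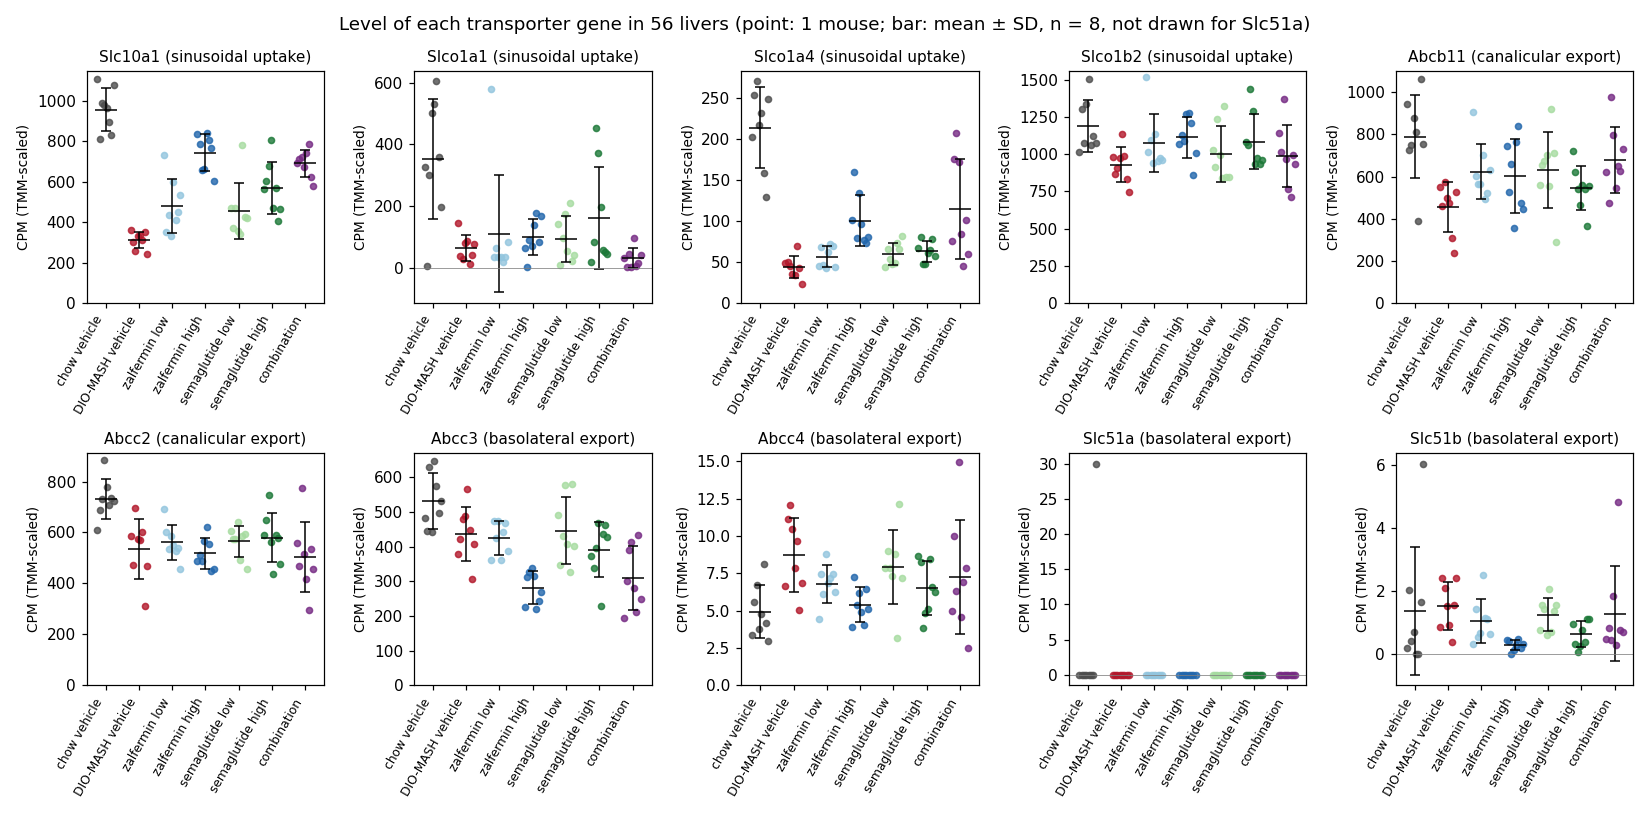
CPM (linear axes) of the 10 genes by group; each point is 1 mouse, the bar is the mean with its SD over 8 mice and is left out for Slc51a. Slc10a1 and Slco1a4 of chow vehicle lie wholly above DIO-MASH vehicle (814 to 1107 against 244 to 360 CPM, and 128 to 270 against 23.7 to 69.4 CPM), and the reads of Slc51a come from a single chow mouse.

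Slc10a1, the sodium-dependent bile acid importer, was at 814, 972 and 1107 CPM (lowest, median and highest of 8) in chow vehicle and at 244, 321 and 360 CPM in DIO-MASH vehicle. It was at 334, 442 and 732 CPM with low-dose zalfermin and at 603, 776 and 842 CPM with high-dose zalfermin. Low-dose semaglutide gave 344, 424 and 783 CPM, and high-dose semaglutide 407, 569 and 807 CPM. The chow, high-dose zalfermin, high-dose semaglutide and combination groups did not overlap with DIO-MASH vehicle, and overlap was not counted for all genes. In the combination the values were 577, 705 and 787 CPM. With each low dose alone, 6 of 8 mice were above the highest vehicle mouse. The highest value of low-dose semaglutide, 783 CPM, was mouse 6, and the next was 471 CPM. The 7 group means ran from chow vehicle at 958 ± 106 CPM (SD, n = 8) over high-dose zalfermin at 745 ± 91.1, the combination at 693 ± 66.8, high-dose semaglutide at 571 ± 129, low-dose zalfermin at 481 ± 134 and low-dose semaglutide at 456 ± 140 to DIO-MASH vehicle at 311 ± 41.7. Of the neighbours in this order, chow and high-dose zalfermin differed (log2 fold change 0.36, adjusted p = 0.0304, edgeR), and the other 5 pairs did not pass the test.

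Slco1a4, which carries bile acids and steroid conjugates and is also known from the blood-brain barrier, was at 128, 224 and 270 CPM in chow vehicle and at 23.7, 43.9 and 69.4 CPM in DIO-MASH vehicle. High-dose zalfermin gave 73.4, 88.1 and 160 CPM, with each of the 8 mice above the highest vehicle mouse. The combination gave 45.3, 92.02 and 207 CPM, with 6 of 8 mice above it. The remaining groups were closer to vehicle, with 42.8, 54.1 and 71.2 CPM at low-dose zalfermin, 44.05, 59.2 and 82.0 CPM at low-dose semaglutide and 47.2, 62.2 and 80.6 CPM at high-dose semaglutide. The combination was the most scattered, with an SD of 60.8 CPM around a mean of 115 CPM, and mice 2, 3 and 4 of that group held its 3 highest values, 176, 207 and 171 CPM. In the order of means the step from chow vehicle to the combination passed the test (log2 fold change 0.89, adjusted p = 0.00117, edgeR), and no other neighbouring pair did.

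Slco1a1, an organic anion importer with strongly male-biased expression in mouse liver, varied most within groups. It was at 5.49, 342 and 604 CPM in chow vehicle and at 12.96, 60.3 and 145 CPM in DIO-MASH vehicle. Zalfermin gave 20.0, 37.04 and 581 CPM at the low dose and 3.06, 87.8 and 178 CPM at the high dose. Semaglutide gave 8.94, 74.9 and 210 CPM at the low dose and 20.8, 72.1 and 452 CPM at the high dose. The combination had the lowest values, 2.54, 25.2 and 98.2 CPM. All groups overlapped, and within a group the SD reached 171% of the mean at low-dose zalfermin. None of the 6 neighbouring pairs of group means differed in the test. In chow vehicle, high-dose zalfermin and the combination, the lowest Slco1a1 value came from a mouse with high Slco1a4. The other groups are not described for this pair. Chow vehicle mouse 2 had 5.49 CPM of Slco1a1 with 253 CPM of Slco1a4, high-dose zalfermin mouse 2 had 3.06 with 160 CPM, the highest Slco1a4 of its group, and combination mice 2 and 4 had 4.88 and 2.54 with 176 and 171 CPM. Combination mouse 6 did not share this, with 5.08 CPM of Slco1a1 and 45.3 CPM of Slco1a4, the lowest of its group. Over the 56 mice, the log2 CPM deviations from the group means of these genes had a Pearson r of -0.43, a description over libraries that each supply both values.

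Slco1b2, the main hepatic OATP of mice for unconjugated bile acids and bilirubin, moved least among the uptake genes. Its 56 values lay between 709 and 1521 CPM. The group means ran from 1187 ± 175 CPM (SD, n = 8) in chow vehicle to 929 ± 118 CPM in DIO-MASH vehicle, the 5 treated groups lay between them at 989 to 1114 CPM, and none of the 6 neighbouring pairs differed in the test. The highest single value, 1521 CPM, belonged to low-dose zalfermin mouse 1, which also had the highest Slco1a1 and Slc10a1 of its group.

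Abcb11, the bile salt export pump, was at 389, 784 and 1061 CPM in chow vehicle and at 238, 486 and 572 CPM in DIO-MASH vehicle. The 5 treated groups had medians between 548 CPM at high-dose semaglutide and 664 CPM at low-dose semaglutide. The combination gave 474, 637 and 978 CPM. In chow vehicle 7 of 8 mice, and in the combination 6 of 8, were above the highest vehicle mouse, and the remaining chow value, 389 CPM in mouse 6, lay within the vehicle range. Abcc2, the canalicular pump for bilirubin conjugates, had its highest group mean in chow vehicle at 732 ± 77.4 CPM (SD, n = 8), and the other 6 means lay close together, from 579 ± 95.8 CPM at high-dose semaglutide to 502 ± 138 CPM in the combination. The step from chow vehicle to high-dose semaglutide passed the test (log2 fold change 0.34, adjusted p = 0.0240, edgeR), and none of the 5 steps below it did. For Abcb11 none of the 6 neighbouring pairs differed.

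Abcc3, the basolateral exporter of glucuronides and bile acids, was at 442, 516 and 648 CPM in chow vehicle and at 308, 436 and 566 CPM in DIO-MASH vehicle. High-dose zalfermin gave 219, 291 and 338 CPM and the combination 194, 290 and 432 CPM. Low-dose zalfermin, at 362, 435 and 475 CPM, lay wholly above high-dose zalfermin, and so did chow vehicle. Low-dose semaglutide gave 327, 418 and 581 CPM and high-dose semaglutide 228, 411 and 469 CPM. Abcc3 had its lowest means in treated groups, below both vehicle groups, at 281 ± 47.8 CPM with high-dose zalfermin and 309 ± 92.8 CPM in the combination (SD, n = 8).

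Abcc4, a basolateral exporter of bile acids together with glutathione, was at a low level, with 17 to 241 reads per library. It was at 2.95, 4.46 and 8.14 CPM in chow vehicle and at 5.04, 8.78 and 12.1 CPM in DIO-MASH vehicle. High-dose zalfermin gave 3.92, 5.24 and 7.27 CPM, within the chow range in each of the 8 mice. The combination spread over 2.46, 6.61 and 14.9 CPM and held both the lowest and the highest of the 56 values. The group means ran from DIO-MASH vehicle at 8.73 ± 2.49 CPM to chow vehicle at 4.94 ± 1.78 CPM, and no neighbouring pair differed in the test.

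Slc51b, the β subunit of the organic solute transporter, had 0 to 49 reads per library. It was at 0.400, 1.54 and 2.42 CPM in DIO-MASH vehicle and at 0, 0.316 and 0.486 CPM with high-dose zalfermin, where 5 of 8 mice were below the lowest vehicle mouse. Chow vehicle gave 0, 0.578 and 6.03 CPM. The highest chow value was mouse 8, and without it the chow mean was 0.721 ± 0.815 CPM (SD, n = 7) rather than 1.39 ± 2.02 CPM (n = 8). The combination gave 0.310, 0.743 and 4.82 CPM. Slc51a, the α subunit, had 244 reads in chow vehicle mouse 8, or 30.03 CPM, and no read in the other 55 libraries, where 3 reads would correspond to 0.143 to 0.652 CPM. Its reads were thus found in the library where Vil1, Lct and Cdx2 were highest. In the other 55 livers Slc51a was not detectable at this depth, and the partner subunit was near its limit.

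The comparison of chow vehicle with DIO-MASH vehicle asks how the diet and the disease it brings change the transporters. All 4 uptake genes and both canalicular pumps were higher in chow livers, with the largest differences for Slco1a1, Slco1a4 and Slc10a1, and Abcc4 was lower. Slc10a1 was 3.07-fold higher (log2 fold change 1.62 ± 0.14 (SE), adjusted p = 9.82e-14), Slco1a4 was 4.91-fold higher (2.30 ± 0.23, adjusted p = 5.02e-12) and Slco1a1 5.52-fold higher (2.46 ± 0.73, adjusted p = 0.00366). Slco1b2 was higher by 0.35 ± 0.12 (adjusted p = 0.00879), Abcb11 by 0.80 ± 0.18 (adjusted p = 0.000262) and Abcc2 by 0.45 ± 0.12 (adjusted p = 0.00163). Abcc4 was lower, with a log2 fold change of -0.82 ± 0.24 (adjusted p = 0.00277). In all, 6 of the 9 members tested were higher, against 26.5% of all genes, and 1 was lower, against 28.9% of all genes (edgeR). Abcc3, with 0.28 ± 0.14 (adjusted p = 0.0880), and Slc51b, with -0.15 ± 0.55 (adjusted p = 0.834), did not pass. Without either doubtful library Slc51b was at -1.03 ± 0.54 (adjusted p = 0.101, edgeR, 54 samples), and over the fits that left out 1 mouse it ran from -1.03 to 0.06. Abcc3 passed without DIO-MASH vehicle mouse 5 (0.36, adjusted p = 0.0348). The median log2 fold change of the 9 members was 0.45 and that of all 14105 genes -0.01. The same 7 members passed in the fit of 54 samples.

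Other cell types moved with this comparison. The 6 hepatocyte markers made up 14.3 to 23.1% of the TMM-scaled reads in chow vehicle and 5.71 to 7.93% in DIO-MASH vehicle, and each of the 6 was higher in chow. The summed level of the 5 markers of monocyte-derived macrophages was 18.98 to 37.7 CPM in chow and 144 to 206 CPM in vehicle, with 5 of 5 lower in chow, and that of the 6 stellate cell markers was 72.0 to 134 against 415 to 668 CPM, with 5 of 6 lower. Of 7 cholangiocyte markers 3 were lower in chow, and 7 of 7 in the fit of 54 samples, where 6 of 6 stellate cell markers were lower too. Of the T cell markers 4 of 4 and of the B cell markers 3 of 3 were lower, of 5 Kupffer cell markers 2 were higher and 1 lower, and of 5 sinusoidal endothelial markers 1 was higher and 2 lower. In bulk livers, fewer cells of a type and less RNA per cell cannot be told apart. The part of these shifts in the transporter differences was not tested.

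**Figure D3:**
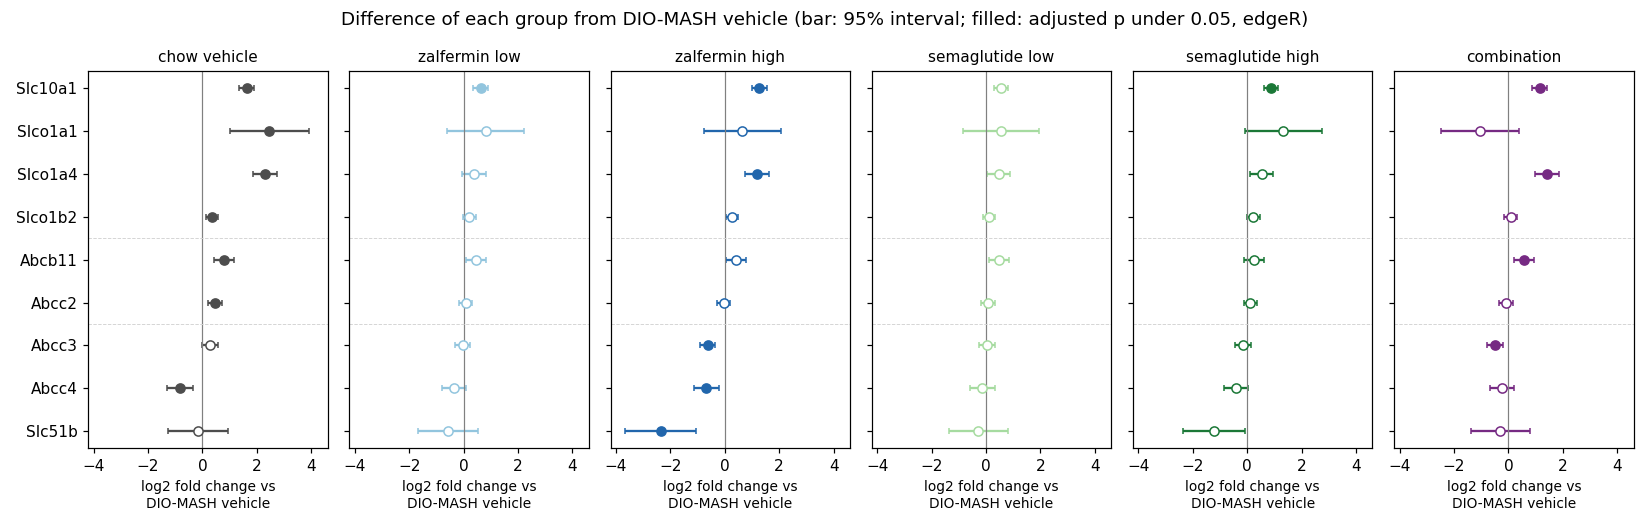
Log2 fold change of 9 transporter genes in each group against DIO-MASH vehicle, with 95% intervals; filled points passed the test (edgeR, adjusted over all genes), and dashed lines part uptake, canalicular and basolateral genes. Slc10a1 lies right of 0 in each panel, from 0.55 at low-dose semaglutide to 1.62 in chow vehicle, and Slc51b lies farthest left at high-dose zalfermin, at -2.36.

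Zalfermin was compared with DIO-MASH vehicle at both doses. High-dose zalfermin raised a pair of importers and lowered the 3 basolateral exporters tested, while the canalicular pumps did not pass. Slc10a1 was 2.39-fold higher (1.26 ± 0.14, adjusted p = 2.64e-09) and Slco1a4 2.30-fold higher (1.20 ± 0.22, adjusted p = 6.29e-05). Abcc3 had a log2 fold change of -0.64 ± 0.14 (adjusted p = 0.00104), Abcc4 of -0.68 ± 0.23 (adjusted p = 0.0345) and Slc51b of -2.36 ± 0.65 (adjusted p = 0.00775). These are 2 of 9 members higher, against 8.54% of all genes, and 3 lower, against 8.68% (edgeR). Abcb11 was at 0.41 ± 0.18 (adjusted p = 0.122) with a 95% interval of 0.04 to 0.78, and Abcc2 at -0.05 ± 0.12 (adjusted p = 0.842). The call of Abcc4 was lost in 9 of the 56 fits that left out a mouse, with adjusted p up to 0.0803. The mice were mouse 2, 3, 4 or 6 of DIO-MASH vehicle and mouse 1, 3, 5, 6 or 8 of high-dose zalfermin. Slc51b rests on at most 6 reads per library at the high dose. All 6 hepatocyte markers were higher at this dose, with 7.47 to 13.1% of the reads. Of the monocyte-derived macrophage markers 4 of 5 were lower, with a summed level of 43.2 to 120 CPM. Of 5 Kupffer cell markers 1 was higher and 0 lower. Lower were 2 of 6 stellate cell markers, with a summed level of 151 to 317 CPM. The part of these shifts was not tested.

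At the low dose of zalfermin, Slc10a1 was 1.54-fold higher (0.63 ± 0.14, adjusted p = 0.0157), and it was the only member of 9 that passed, against 0.418% of all genes higher and 0.0496% lower (edgeR). It did not pass without DIO-MASH vehicle mouse 3 (adjusted p = 0.0502), DIO-MASH vehicle mouse 8 (0.0621), low-dose zalfermin mouse 1 (0.125) or low-dose zalfermin mouse 5 (0.0519). The doses differed directly for 3 members, against 1.84% of all genes in either direction. From the low to the high dose Slc10a1 was higher by 0.63 ± 0.14 (adjusted p = 0.00615) and Slco1a4 by 0.83 ± 0.22 (adjusted p = 0.0307), and Abcc3 was lower with -0.59 ± 0.14 (adjusted p = 0.0166). The groups did not overlap for Slco1a4 and Abcc3, and overlap was not counted for all genes. The call of Slco1a4 was lost without high-dose zalfermin mouse 2 (adjusted p = 0.102) or 4 (0.0615) or low-dose zalfermin mouse 3 (0.0650), 4 (0.0816) or 8 (0.0554), and that of Abcc3 without high-dose mouse 6 (0.0529) or low-dose mouse 4 (0.0504), so that without the latter mouse only Slc10a1 passed.

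Semaglutide moved the same importer. At the high dose Slc10a1 was 1.83-fold higher than in DIO-MASH vehicle (0.88 ± 0.14, adjusted p = 0.000121), which is 1 of 9 members higher, against 1.43% of all genes, and none lower, against 1% (edgeR). Slco1a4 was at 0.53 ± 0.22 (adjusted p = 0.195) with a 95% interval of 0.09 to 0.97, and Slc51b at -1.23 ± 0.57 (adjusted p = 0.252). At the low dose 0 of 9 members passed, against 0% of all genes in each direction (edgeR). An unadjusted p under 0.05 was held by 3 members, against 1222 of all 14105 genes (edgeR). DESeq2's Wald test called 1 member, against 31 of all genes, and gave no adjusted p for Slco1a1, Slco1a4, Abcc4 and Slc51b. The member called was Slc10a1, with a log2 fold change of 0.54 (adjusted p = 0.0133, DESeq2) against 0.55 ± 0.14 (adjusted p = 0.259) in edgeR. In the fit of 54 samples, which leaves out low-dose semaglutide mouse 6, its value was 0.39 ± 0.12 (adjusted p = 0.716, edgeR). High-dose semaglutide had 1 of 6 hepatocyte markers higher and the low dose 0 of 6, with 6.34 to 10.9% and 6.81 to 11.02% of the reads. At the high dose 1 of 6 stellate cell markers and 3 of 3 B cell markers were lower. The part of these marker shifts was not tested. Between the doses of semaglutide 0 of 9 members passed, against 0% of all genes, by edgeR and by DESeq2. An unadjusted p under 0.05 was held by 1 member, against 549 of all 14105 genes (edgeR).

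In the combination, Slc10a1 and Slco1a4 were higher and Abcc3 lower than in DIO-MASH vehicle, as at high-dose zalfermin, and Abcb11 was higher. Slc10a1 was 2.23-fold higher (1.15 ± 0.14, adjusted p = 1.75e-08), Slco1a4 2.65-fold higher (1.40 ± 0.22, adjusted p = 4.31e-06) and Abcb11 1.49-fold higher (0.58 ± 0.18, adjusted p = 0.0197). Abcc3 had a log2 fold change of -0.50 ± 0.14 (adjusted p = 0.00898). These are 3 of 9 members higher, against 10% of all genes, and 1 lower, against 10.9% (edgeR). Slco1a1 was at -1.04 ± 0.71 (adjusted p = 0.307), Abcc4 at -0.24 ± 0.23 (adjusted p = 0.477), Slc51b at -0.29 ± 0.55 (adjusted p = 0.742), Slco1b2 at 0.09 ± 0.12 (adjusted p = 0.614) and Abcc2 at -0.09 ± 0.12 (adjusted p = 0.636). In the other treated groups Abcb11 was 0.26 (high-dose semaglutide) to 0.48 (low-dose semaglutide) above DIO-MASH vehicle without passing. The combination exceeded those groups by 0.10 to 0.32 for Abcb11, and none of these differences passed (DESeq2, adjusted p = 0.390 or more). In the combination, the Abcb11 call was lost without DIO-MASH vehicle mouse 7 (adjusted p = 0.0509), the lowest of its group at 238 CPM. It was also lost without combination mouse 3 (0.0645), the highest at 978 CPM. Here 5 of 6 hepatocyte markers were higher, with 8.17 to 13.1% of the reads. Of 5 Kupffer cell markers 3 were higher and 0 lower. Lower were 3 of 5 monocyte-derived macrophage markers, with a summed level of 45.3 to 227 CPM, and 5 of 6 stellate cell markers. The latter summed to 165 to 340 CPM. Also lower were 1 of 7 cholangiocyte, 1 of 5 sinusoidal endothelial and 1 of 3 B cell markers. The part of these shifts was not tested.

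The combination was set against each of its parts to ask what the second drug added. Compared with low-dose zalfermin, Slc10a1 was higher by 0.53 ± 0.14 (adjusted p = 0.0104) and Slco1a4 by 1.04 ± 0.22 (adjusted p = 0.00164), and Abcc3 was lower with -0.46 ± 0.14 (adjusted p = 0.0391), 3 of 9 members against 6.62% of all genes. Compared with low-dose semaglutide, the same 3 members passed, against 4.21% of all genes, with Slc10a1 at 0.61 ± 0.14 (adjusted p = 0.00445), Slco1a4 at 0.94 ± 0.22 (adjusted p = 0.00582) and Abcc3 at -0.53 ± 0.14 (adjusted p = 0.0221). These comparisons share the combination mice. Against low-dose zalfermin, Abcc3 lost its call in 10 of the fits without a mouse (low-dose zalfermin mouse 2, 3, 4, 6 or 7, combination mouse 1, 2, 5, 6 or 8), with adjusted p up to 0.114. Against low-dose semaglutide it lost it in 5 (low-dose semaglutide mouse 1, 4 or 7, combination mouse 1 or 6), with adjusted p up to 0.0725. In fits of only the groups compared, Abcc3 did not pass in either comparison (adjusted p = 0.0888 and 0.115), and Slco1a4 did not pass against low-dose semaglutide (0.0726). The low-dose interaction asks whether the combination departs from the sum of the low-dose effects on the log2 scale. It passed for 0 of 9 members by edgeR, against 0.0142% of all genes. DESeq2 called none either, with no adjusted p for Slc51b. An unadjusted p under 0.05 was held by 2 members, against 952 of all 14105 genes (edgeR). For Slc10a1 the interaction was -0.02 ± 0.19 (95% interval -0.40 to 0.36) and for Slco1a4 0.57 ± 0.31 (-0.04 to 1.19). For Abcc3 the interaction was -0.49 ± 0.20 (-0.89 to -0.08, adjusted p = 0.628) and for Slco1a1 -2.40 ± 1.005 (-4.42 to -0.39, adjusted p = 0.633). Without low-dose zalfermin mouse 1, which had the highest Slco1a1 of its group, that value was -1.08.

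Compared with high-dose zalfermin, 0 of 9 members passed in the combination by edgeR, against 0.503% of all genes. DESeq2 called none either, with no adjusted p for Slc51b. An unadjusted p under 0.05 was held by 2 members, against 1544 of all 14105 genes (edgeR). Slc10a1 differed by -0.10 ± 0.14 (95% interval -0.38 to 0.17) and Slco1a4 by 0.21 ± 0.22 (-0.23 to 0.64), whereas Slc51b was at 2.07 ± 0.66 (adjusted p = 0.146). Compared with high-dose semaglutide, Slco1a4 was higher by 0.88 ± 0.22 (adjusted p = 0.0195), 1 of 9 members against 1.89% of all genes. That call was lost without combination mouse 3 (adjusted p = 0.0733) or mouse 4 (0.0561), a pair of the 3 mice with the highest Slco1a4 of the group. Slco1a1 was at -2.37 ± 0.74 (adjusted p = 0.0799) in that comparison. Between the high doses of the drugs 0 of 9 members passed by edgeR and by DESeq2, against 0.447% of all genes (edgeR). An unadjusted p under 0.05 was held by 3 members, against 1361 of all 14105 genes (edgeR). The difference of Slc10a1 was 0.38 ± 0.14 (95% interval 0.11 to 0.65) and that of Abcc3 -0.48 ± 0.14 (-0.76 to -0.19).

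Treated livers were also compared with chow vehicle, to see how far each member stood from the level of chow-fed mice. Slc10a1, Slco1a4 and Abcc2 were lower than in chow in each of the 5 treated groups. Slc10a1 was nearest to chow at high-dose zalfermin, at -0.36 ± 0.14 (adjusted p = 0.0304), a call that was lost without chow vehicle mouse 1 (adjusted p = 0.0604) or 8 (0.0534) or high-dose zalfermin mouse 3 (0.0551), 4 (0.0519) or 8 (0.0636). It stood at -0.47 ± 0.14 in the combination (adjusted p = 0.00613) and at -1.07 ± 0.14 with low-dose semaglutide (adjusted p = 1.33e-08). Slco1a4 ranged from -0.89 ± 0.22 in the combination (adjusted p = 0.00117) to -1.93 ± 0.22 with low-dose zalfermin (adjusted p = 1.12e-09), and Abcc2 from -0.34 ± 0.12 with high-dose semaglutide (adjusted p = 0.0240) to -0.54 ± 0.12 in the combination (adjusted p = 0.000569). The Abcc2 call with high-dose semaglutide was lost without chow vehicle mouse 4 (adjusted p = 0.0559) or high-dose semaglutide mouse 5 (0.0611) or 8 (0.0525). With high-dose semaglutide, Abcb11 was also lower than in chow (-0.53 ± 0.18, adjusted p = 0.0175). Slco1a1 was lower in 4 groups, of which low-dose zalfermin lost its call in 41 of the 56 fits without a mouse and high-dose zalfermin in 9, and low-dose semaglutide without its mouse 2 (adjusted p = 0.0509). With high-dose semaglutide it was at -1.14 ± 0.70 (adjusted p = 0.194). It was farthest from chow in the combination, at -3.505 ± 0.77 (adjusted p = 0.000371).

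Of the basolateral genes, Abcc3 was lower than in chow with high-dose zalfermin (-0.92 ± 0.14, adjusted p = 1.99e-06), in the combination (-0.78 ± 0.14, adjusted p = 3.23e-05) and with high-dose semaglutide (-0.44 ± 0.14, adjusted p = 0.0114), although chow and DIO-MASH vehicle themselves did not differ in the test. Abcc4 was higher than in chow with low-dose semaglutide (0.68 ± 0.24, adjusted p = 0.0149), a call that was lost without low-dose semaglutide mouse 7 (adjusted p = 0.0505) and with the sample number series as a term of the fit (0.57, adjusted p = 0.0558). Slc51b was lower with high-dose zalfermin at -2.21 ± 0.67 (adjusted p = 0.00740), but without chow vehicle mouse 8 it was at -1.33 (adjusted p = 0.104). The counts of members that passed were 4 of 9 with low-dose zalfermin, against 47.5% of all genes, 6 with high-dose zalfermin, against 37.2%, 5 with low-dose semaglutide, against 45.6%, 5 with high-dose semaglutide, against 39.9%, and 5 in the combination, against 32.4% (edgeR, either direction). These 5 comparisons share the chow vehicle mice.

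Uptake was set against export within each mouse as the log2 ratio of Slc10a1 reads to those of an exporter, a measure in which the scaling of the library cancels. The ratio to Abcc3 had a mean of -0.48 ± 0.37 (SD, n = 8) in DIO-MASH vehicle and 0.85 ± 0.24 in chow vehicle. It was 1.41 ± 0.37 with high-dose zalfermin and 1.22 ± 0.50 in the combination, above the chow mean, and in these groups and in chow each of the 8 mice was above the highest vehicle mouse. High-dose semaglutide, at 0.55 ± 0.41, had 6 such mice, low-dose zalfermin, at 0.14 ± 0.54, had 3, and low-dose semaglutide, at 0.01 ± 0.58, had 1. That mouse was the doubtful mouse 6, at 1.26, and without it low-dose semaglutide was at -0.16 ± 0.31 (n = 7) with 0 mice above. The ratio to Abcc4 was 5.201 ± 0.55 in DIO-MASH vehicle, or 36.8 Slc10a1 reads for each Abcc4 read, and 7.67 ± 0.60 in chow vehicle, or 204 reads. High-dose zalfermin reached 7.13 ± 0.41, the combination 6.75 ± 0.75, high-dose semaglutide 6.48 ± 0.61, low-dose zalfermin 6.12 ± 0.65 and low-dose semaglutide 5.88 ± 0.89, or 5.58 ± 0.32 (n = 7) without mouse 6, which was at 7.95.

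The ratio of Slc10a1 to the canalicular pump Abcb11 moved less. It was -0.50 ± 0.56 in DIO-MASH vehicle, 0.32 ± 0.44 in chow vehicle and 0.35 ± 0.35 with high-dose zalfermin. It was 0.06 ± 0.38 both in the combination and with high-dose semaglutide, -0.40 ± 0.23 with low-dose zalfermin and -0.46 ± 0.48 with low-dose semaglutide. DIO-MASH vehicle overlapped with each group for this ratio, and at most 3 mice of a group were above its highest value of 0.56. These ratios are a description without a test, since they are built from genes whose differences are tested above.

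**Figure D4:**
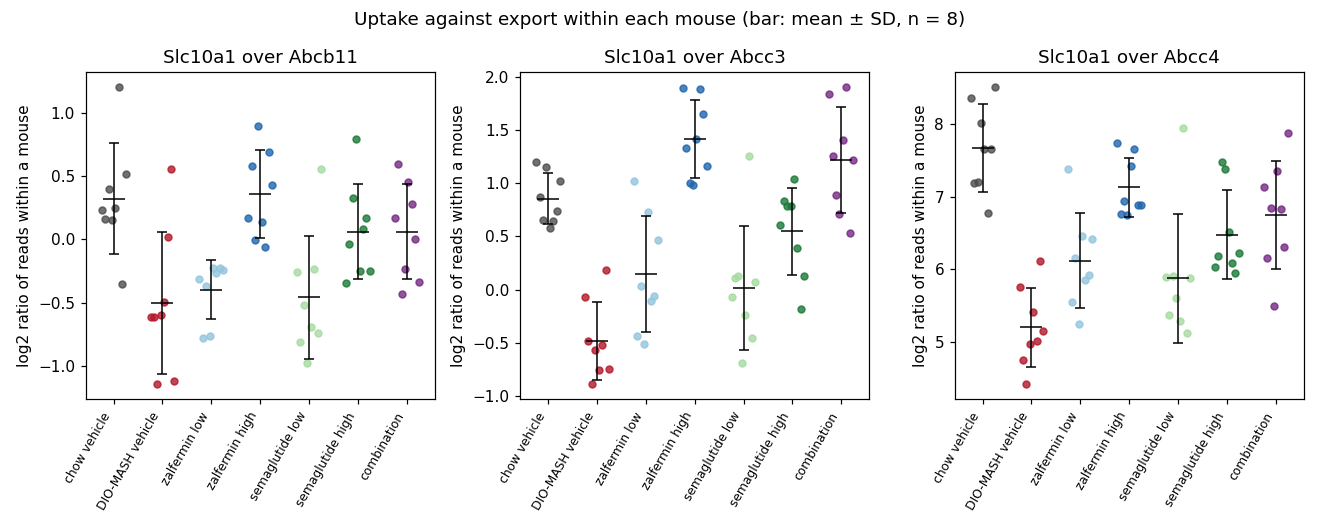
Log2 ratio of Slc10a1 reads to reads of Abcb11, Abcc3 and Abcc4 within each of the 56 mice (vertical axis) by group; each point is 1 mouse and the bar is the mean with its SD over 8 mice. The ratios to Abcc3 and Abcc4 lie lowest in DIO-MASH vehicle, at means of -0.48 and 5.201, and the ratio to Abcc3 is highest with high-dose zalfermin, at 1.41.

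The other genes of bile acid handling were counted from lists written with earlier results of these data in view. Their counts stand beside 26.5% of all genes higher and 28.9% lower in chow, 10% and 10.9% in the combination, 8.54% and 8.68% with high-dose zalfermin and 1.43% and 1% with high-dose semaglutide (edgeR). Of 16 other carriers tested, 5 were higher and 6 lower in chow than in DIO-MASH vehicle, and 4 were higher and 2 lower in the combination (5 and 2 in the fit of 54 samples). The largest rises in chow were Slc22a7, an organic anion carrier (1.92 ± 0.36, adjusted p = 1.25e-05), and Abcc6 (0.45 ± 0.12, adjusted p = 0.000952), and the largest falls were Abcc1 (-1.70 ± 0.24, adjusted p = 6.97e-08) and Abcb1b (-1.51 ± 0.24, adjusted p = 4.06e-07), both drug efflux pumps. In the combination they were Slc22a7 (1.03 ± 0.36, adjusted p = 0.0330) and Slc47a1 (0.30 ± 0.09, adjusted p = 0.0118) upward, and Abcb1b (-0.87 ± 0.22, adjusted p = 0.00365) and Abcg2 (-0.68 ± 0.13, adjusted p = 0.000118) downward. High-dose zalfermin had 6 higher and 3 lower, high-dose semaglutide 0 and 1, and each low dose 0 and 0.

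Of 14 regulators tested, 9 were higher and 1 lower in chow, and 6 were higher and 0 lower in the combination. In the fit of 54 samples these counts were 8 and 2 in chow and 6 and 1 in the combination. High-dose zalfermin had 6 higher and 1 lower, high-dose semaglutide 3 higher, and the low doses 0. The largest rises in chow were Vdr and Hnf4a, and that of Vdr turned over without chow vehicle mouse 8. Vdr, the vitamin D receptor, was at 82.7 CPM in mouse 8, at 0.435 CPM or less in the other 7 chow mice and at 0.322 to 0.702 CPM in DIO-MASH vehicle, so that its log2 fold change was 4.39 ± 0.93 (adjusted p = 7.58e-05) with all samples and -3.17 ± 0.74 (adjusted p = 0.000272) in the fit of 54 samples. Hnf4a, which drives hepatocyte genes, was higher by 1.19 ± 0.14 in chow (adjusted p = 3.91e-10) and by 0.80 ± 0.14 in the combination (adjusted p = 1.87e-05). Klb, the coreceptor through which FGF21 signals, was higher by 0.68 ± 0.14 in the combination (adjusted p = 0.000503). Nfe2l2, the regulator of antioxidant genes, was the 1 regulator that was lower in chow with all samples (-0.66 ± 0.11, adjusted p = 7.21e-07).

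Both bile acid conjugation genes were higher in chow, at high-dose zalfermin and in the combination, 1 was higher with low-dose zalfermin and 1 with the high dose of semaglutide, and 0 with low-dose semaglutide. Slc27a5, the ligase that activates bile acids for conjugation, was higher by 1.28 ± 0.12 in chow (adjusted p = 3.72e-13) and by 0.86 ± 0.11 in the combination (adjusted p = 1.51e-07). Baat, which joins them to taurine or glycine, was higher by 0.62 ± 0.09 (adjusted p = 4.19e-08) and 0.25 ± 0.09 (adjusted p = 0.0310). Of 8 scaffold and trafficking genes, 3 were higher and 1 lower in chow, 1 and 1 in the combination, 2 and 1 at high-dose zalfermin, 1 and 0 at high-dose semaglutide, and 0 at the low doses. In the fit of 54 samples 3 were higher and 3 lower in chow, and 2 and 1 in the combination. Ezr, which links membranes to actin and is named here after its values were seen, was at 177 CPM in chow vehicle mouse 8 and at 4.68 to 11.7 CPM in the other chow mice, so that its log2 fold change in chow was 0.41 ± 0.46 (adjusted p = 0.457) with all samples and -1.49 ± 0.28 (adjusted p = 1.18e-05) in the fit of 54 samples. Slc9a3r1, the membrane scaffold NHERF1, was higher in chow by 1.01 ± 0.11 (adjusted p = 9.86e-11) and in the combination by 0.41 ± 0.11 (adjusted p = 0.00566), and Rdx, which anchors canalicular pumps to actin, in chow by 0.65 ± 0.11 (adjusted p = 1.15e-06). Myo5b, the motor that carries Abcb11 to the canaliculus, was lower in chow (-0.43 ± 0.10, adjusted p = 0.000275) and in the combination (-0.58 ± 0.10, adjusted p = 2.60e-05).

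Among the genes whose levels followed those of a member most closely, by the Pearson r of log2 CPM deviations from the group means over the 56 mice, were Atg3 (0.77) and Epb41l4b (0.77) for Slc10a1. For Abcb11 the closest were Cbs (0.92), Acat3 (0.86) and Lonp2 (0.86), and for Abcc4 Myo1c (0.77), Pcdhgc3 (0.74) and Ttc3 (0.70). Without the doubtful pair of libraries, and with deviations still taken from the group means of all 56 mice, Atg3 was at 0.72 and Epb41l4b at 0.73. Cbs was then at 0.91, Acat3 at 0.86, Lonp2 at 0.85, Myo1c at 0.72, Pcdhgc3 at 0.68 and Ttc3 at 0.64. Among members the highest values were 0.69 between Slco1b2 and Abcc2 and 0.49 between Abcc3 and Abcc4, and the lowest was -0.56 between Slco1a1 and Abcc4. The points share libraries and their depth, and the values are given without a test.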

How the data were processed

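Liver RNA of 56 mice was sequenced, and the authors deposited a table of raw read counts for 21935 genes, used here as deposited. Per the study's methods, stranded mRNA libraries were sequenced on an Illumina instrument and STAR aligned the reads to GRCm38. The submitters' processing notes name Trim Galore 0.6.4 and Salmon 1.9.0 instead, and how reads were assigned to genes and whether strand was used are not given in the sources used here. Samples were grouped by their treatment label, and all 56 were kept, with 5228187 to 20885786 reads each. With 1 library per mouse, p-values measure the spread between mice of a group. The members and gene lists were chosen with earlier results of these data known.

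The 14105 genes that reached 5 reads in at least 3 samples were fitted in edgeR 4.0.16 (R 4.3.3) with TMM scaling and 1 quasi-likelihood model of the 7 groups. Tests were two-sided F tests with Benjamini-Hochberg adjustment over all 14105 genes and a threshold of 0.05, and adjusted p-values come from edgeR wherever no other tool is given. The SE is the log2 fold change divided by the root of F. Intervals are 95%. The study used DESeq2, and its Wald test (1.42.0) is an alternative. Other alternatives were DESeq2 size factors, no filter beyond 1 read, 10 or more reads in 8 or more samples, a term for the number series, fits restricted to the groups of a comparison, and each sample left out in turn. Leaving out chow vehicle mouse 8 and low-dose semaglutide mouse 6 together was chosen after seeing the data. The fit was tested on simulated counts. All 10 members are described; of the other lists, the genes named are the 2 largest rises and 2 largest falls among those that passed in chow and in the combination against DIO-MASH vehicle. Promoters came from RefSeq and gene models from GENCODE M21. For Slc10a1, 1 of the 3 genes with the most similar pattern is not reported here.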

Additional observations from a re-analysis of the deposited data

Results flagged for a closer look

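Of 63 groups of 8 values (9 members in 7 groups, log2 scale), 9 held a mouse far from the others by Dixon's test at the 95% level, and chance marks about 1 in 20. Low-dose semaglutide mouse 6 had the highest Slc10a1 of its group, 783 CPM against 344 to 471 CPM in the other 7, and the lowest Abcc4, 3.17 CPM against 7.17 to 12.1 CPM. Low-dose zalfermin mouse 1 had the highest Slco1a1, 581 CPM against 20.0 to 83.7 CPM, and the highest Slco1b2, 1521 CPM against 939 to 1136 CPM.

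The lowest Slco1a1 of chow vehicle, 5.49 CPM in mouse 2, lay below 198 to 604 CPM, and that of high-dose zalfermin, 3.06 CPM in mouse 2, below 64.7 to 178 CPM. Abcb11 was lowest in chow vehicle mouse 6, at 389 CPM against 727 to 1061 CPM, and in low-dose semaglutide mouse 8, at 288 CPM against 556 to 922 CPM. Abcc3 was lowest in high-dose semaglutide mouse 5, at 228 CPM against 339 to 469 CPM. Whether any of these livers differed in sampling was not tested. Slc51a was not part of this screen, since 55 of its 56 values are 0.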

How the results depend on the processing

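Of the 171 member differences, 162 to 170 kept their side of the threshold under each of the 7 other settings, and none that was called in either fit changed sign. A difference for which DESeq2 gave no adjusted p was counted as not called. Direction was not compared where neither fit called a difference. There, Slc51b at low-dose semaglutide against DIO-MASH vehicle ran from -0.29 to 0.06 over these settings. Under DESeq2's Wald test the members called became 1 for low-dose semaglutide against DIO-MASH vehicle and 2 for the combination against high-dose semaglutide. In fits of only the groups compared they became 1 for the combination against low-dose semaglutide, where Slco1a4 (adjusted p = 0.0726) and Abcc3 (0.115) were lost, and 0 for the combination against high-dose semaglutide, and Abcc3 was lost for the combination against low-dose zalfermin (0.0888). The cause was not tested. Over all genes, DESeq2 called 182 for low-dose zalfermin against DIO-MASH vehicle (edgeR 66), 31 for low-dose semaglutide (0), 516 for high-dose semaglutide (343), 169 for the combination against high-dose zalfermin (71), 415 against high-dose semaglutide (266), 131 between the high doses (63) and 11 for the interaction (2).

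With each sample left out in turn, the members called ranged from 0 to 1 for low-dose zalfermin against DIO-MASH vehicle, beside 6 to 138 of all genes. They ranged from 0 to 2 for the combination against high-dose semaglutide (126 to 357 of all genes) and from 1 to 3 between the zalfermin doses (109 to 494). Between high-dose zalfermin and high-dose semaglutide the range was 0 to 1 (25 to 119 of all genes), where Abcc3 passed without high-dose semaglutide mouse 5. For the combination against high-dose semaglutide, Slco1a1 also passed without low-dose zalfermin mouse 1 or combination mouse 5. Mean ratios of uptake to export and mean group levels were recalculated as well, giving 168 and 630 values counted over all recalculations. None moved by more than 1 SD of its group. Leaving 1 mouse out of a group cannot move its mean that far, so no conclusion on stability is drawn from these counts. In the fit of 54 samples, Slc51b at high-dose zalfermin against chow was lost (adjusted p = 0.105) and Slco1b2 at low-dose semaglutide against chow passed (0.0220). With 0 to 49 reads per library, Slc51b can show only large changes. No paired analysis was possible because each mouse has a sample number of its own. With the number series as a term, Slc51b at high-dose zalfermin (adjusted p = 0.108) and Abcc4 at low-dose semaglutide (0.0558) lost their calls against chow, and Slco1b2 passed at low-dose semaglutide (0.0131) and in the combination (0.0120).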
